A study of Mus musculus with 8 samples.

Results

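The 30 genes described here mark the oligodendrocyte lineage, from dividing precursor to myelin-forming cell. They were read by symbol from a table of 22000 genes, where all 30 had a row and all 30 were among the 13879 genes with enough reads to test. Of the 30, 2 mark precursors, 3 mark newly formed oligodendrocytes, 3 are transcription factors of the whole lineage and 22 belong to the mature, myelinating cell. Oligodendrocytes arise from precursors that divide under platelet-derived growth factor, leave the cell cycle and wrap axons with stacked membrane. Myelin is rich in cholesterol and galactolipids and holds a small set of abundant proteins, myelin basic protein among them. In the cortex most myelinating cells lie in the deep layers and in the white matter beneath them.

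Messenger RNA of whole cortex had been sequenced from 8 mice. The libraries labelled heterozygous came from 4 mice with the genotype Mef2c heterozygous, and the libraries labelled wild type came from 4 mice with the genotype Mef2c wild type. Each genotype had 2 males and 2 females, and the labels give neither the age nor the Mef2c allele nor a Cre driver. The animal numbers in the sample names fall into 2 runs of nearby numbers, the higher of which is called the second run and the lower the first run. Replicates 3 and 4 of each genotype belong to the second run, and replicates 1 and 2 to the first. Values by genotype are given in the order of the replicates, and values by run with the heterozygous libraries before the wild type ones. Each run held 1 male and 1 female of each genotype, and the labels do not say what the runs stand for.

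Read counts per gene summed to between 16092773 and 17841377 a library, and the 30 genes took between 0.632% and 0.766% of them. Mef2c, the gene named in the labels, had 1233, 1336, 1391 and 1255 CPM, counts scaled to a common library total, in the libraries labelled heterozygous, against 1038, 939, 999 and 1003 CPM in those labelled wild type. Its level was thus higher in all 4 libraries labelled heterozygous, with a log2 fold change of 0.39 and an adjusted p of 0.000154 (Benjamini-Hochberg over all genes, quasi-likelihood test of edgeR, as for every adjusted p below). A gene count does not show which part of the gene was read, and directions by genotype are those of the labels as deposited.

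Myelin genes were read at depth in the cortex. All 30 genes were read in every library. Levels were compared between genes as CPM per kb of annotated exon, averaged over 8 libraries. On that scale Mbp, which compacts the myelin membrane, was highest at 372. Next came Mobp, a small basic protein of compact myelin, at 148, then Cldn11, the tight-junction protein of myelin, at 133 and Mal, a membrane protein of lipid rafts, at 125. The lowest were Cspg4, the NG2 proteoglycan of precursors and pericytes, at 1.82, Aspa, which splits N-acetylaspartate, at 1.88 and Enpp6, a choline phosphodiesterase of newly formed oligodendrocytes, at 1.97. These 3 lie close together, and their order is not separated from the spread between libraries. Whole cortex is bulk tissue, so fewer cells of a type and less RNA per cell cannot be told apart in any value below.

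**Figure D1:**
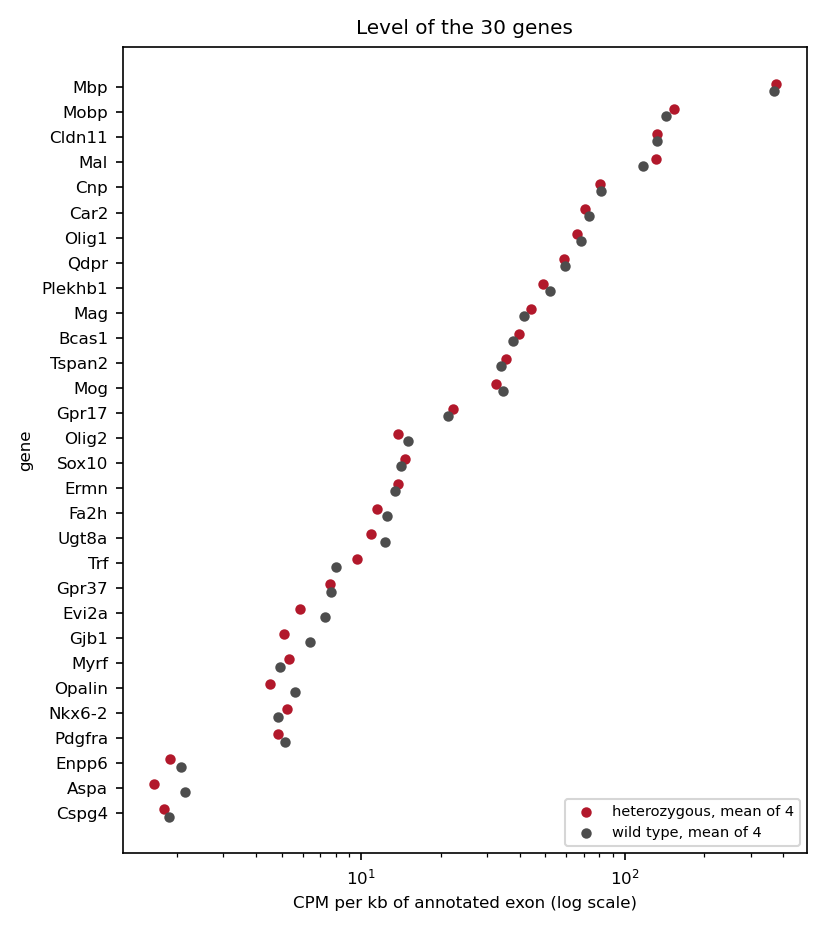
Level of each gene as CPM per kb of annotated exon on a log axis, with the mean of 4 heterozygous libraries in red and of 4 wild type libraries in grey. Mbp is highest at 372 and Cspg4 lowest at 1.82 over all libraries, and the genotypes lie close together for most genes.

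Promoter sequences are given for 4 of the genes whose levels differed between the runs of animal numbers before adjustment, to show which short motifs of lineage factors they hold. The sequences run from 250 bases upstream to the base before the start annotated by RefSeq on GRCm38.p6, and are written 5′ to 3′ along the gene's strand. For Cnp, Aspa and Olig2 the RefSeq start lies inside the gene as GENCODE annotates it, which for Aspa is chr11:73304992-73329596. Capitals mark matches on either strand to the core of SOX factors (ACAAAG or ACAATG), the MYRF motif (CTGGCAC) or the E-boxes CAGCTG and CAGATG read by OLIG factors. The motifs do not overlap one another in these windows. Mog lies on the minus strand at chr17:37023399-37023648, Cnp on the plus strand at chr11:100574689-100574938, Aspa on the minus strand at chr11:73324638-73324887 and Olig2 on the plus strand at chr16:91225300-91225549.
Mog: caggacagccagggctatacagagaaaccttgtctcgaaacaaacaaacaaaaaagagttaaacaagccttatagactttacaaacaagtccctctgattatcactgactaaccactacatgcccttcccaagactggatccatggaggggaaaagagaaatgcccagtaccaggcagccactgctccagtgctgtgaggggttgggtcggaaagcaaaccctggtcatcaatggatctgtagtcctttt
Cnp: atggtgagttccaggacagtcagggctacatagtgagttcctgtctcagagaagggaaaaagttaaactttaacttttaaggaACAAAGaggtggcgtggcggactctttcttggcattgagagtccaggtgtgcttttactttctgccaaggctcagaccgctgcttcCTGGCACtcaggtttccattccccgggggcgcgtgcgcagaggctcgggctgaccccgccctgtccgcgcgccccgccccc
Aspa: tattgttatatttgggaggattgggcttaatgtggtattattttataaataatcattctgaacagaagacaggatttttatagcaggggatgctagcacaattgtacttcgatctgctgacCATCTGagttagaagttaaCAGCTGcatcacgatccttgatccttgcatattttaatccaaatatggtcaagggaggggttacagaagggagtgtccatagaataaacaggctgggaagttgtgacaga
Olig2: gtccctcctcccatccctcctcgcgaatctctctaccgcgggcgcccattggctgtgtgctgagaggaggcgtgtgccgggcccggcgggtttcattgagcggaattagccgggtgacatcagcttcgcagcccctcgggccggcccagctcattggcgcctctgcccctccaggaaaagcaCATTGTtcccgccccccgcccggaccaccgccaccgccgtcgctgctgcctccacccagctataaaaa
The Mog window held none of these motifs. The Cnp window held 1 SOX core and 1 MYRF motif, the Aspa window 2 E-boxes and the Olig2 window 1 SOX core. Cldn11 and Gpr37 also differed by run before adjustment and are not printed. The Cldn11 window held none of these motifs and the Gpr37 window 1 E-box. Of the 30 genes, 20 were in the RefSeq promoter table. Bcas1, Olig1, Sox10, Fa2h and Car2, which differed by run before adjustment too, were not in it. The SOX core was in 8 of these 20 windows (40.0%), against 25.4% of 27025 promoters. The E-boxes were in 7 of 20 (35.0%), against 25.3%, and the MYRF motif was in 2 of 20, against 4.16%. A match is a run of letters and not a bound site, and no binding was measured.

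The first comparison asked whether the lineage differed between the genotypes, and no member passed the test. In the genotype comparison 37 of the 13879 genes tested (0.267%) had an adjusted p under 0.05, and 0 of the 30 members did. At an unadjusted p under 0.05 there were 4 members, against 7.24% of all genes tested. Of these, 1 was higher, against 3.54% of all genes, and 3 were lower, against 3.7%. The members split into 13 with a log2 fold change above 0 and 17 below, where 49.5% of all genes were above 0, with a median of -0.02, beside -0.001 over all genes. The genotypes did not overlap for 1 member, Opalin, against 4.55% of all genes tested. DESeq2's Wald test and limma-voom also called 0 members.

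None of the precursor and newly formed genes passed the test by genotype. Pdgfra, the receptor that drives precursor division, had 51.7, 42.7, 46.3 and 53.9 CPM in heterozygous libraries, against 51.2, 49.2, 51.7 and 53.4 CPM in wild type libraries. The groups overlapped, and heterozygous replicate 2 was the lowest of the 8. Its log2 fold change was -0.08 ± 0.07 (SE, n = 4 each, edgeR adjusted p = 0.953). Cspg4 differed by -0.05, Gpr17, a receptor of cells that are about to mature, by 0.07, Enpp6 by -0.14 and Bcas1, a marker of cells starting to myelinate, by 0.07 on the log2 scale.

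The transcription factors did not pass the test either. Olig1 and Olig2, the basic helix-loop-helix factors of the lineage, had log2 fold changes of -0.05 and -0.13, and Sox10, which acts with them on myelin genes, had 0.04. Myrf, the factor that switches on the myelin programme, had 45.6, 43.7, 45.8 and 47.0 CPM in heterozygous libraries, against 43.7, 37.5, 43.8 and 42.7 CPM in wild type libraries. Most heterozygous values lay just above the wild type ones, and the lowest of them fell within the wild type range. Its log2 fold change was 0.12 ± 0.07 (SE, n = 4 each, edgeR adjusted p = 0.818), and that of Nkx6-2, a homeodomain factor of myelinating cells, was 0.11.

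Mbp, the most abundant of the 30 genes, had near-equal means in the genotypes. It had 3562, 2999, 2874 and 3248 CPM in heterozygous libraries, against 3176, 2907, 3397 and 3039 CPM in wild type libraries. The heterozygous range covered the wild type range, with a log2 fold change of 0.02 ± 0.07 (SE, n = 4 each, edgeR adjusted p = 0.997).

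Of the 11 structural genes of myelin, 7 had a log2 fold change above 0 by genotype and 4 below, with a median of 0.02 and 0 called. Opalin and Gjb1, both below 0, were the 2 with an unadjusted p under 0.05. Opalin, a sialylated membrane protein of oligodendrocytes (GRCm38 chr19:41061710-41077113, ENSMUSG00000050121.9), had 14.6, 10.4, 14.7 and 13.4 CPM in heterozygous libraries, against 14.7, 17.3, 15.8 and 18.2 CPM in wild type libraries. The groups were separated by a very narrow gap, with heterozygous replicate 2 lowest. This was a log2 fold change of -0.32 ± 0.12 (SE, n = 4 each, edgeR adjusted p = 0.446). Gjb1, the gap-junction protein connexin 32 (chrX:101376378-101385629), had 8.18, 6.61, 9.38 and 10.6 CPM in heterozygous libraries, against 11.2, 10.1, 12.2 and 10.1 CPM in wild type libraries. Here 1 heterozygous library reached into the wild type range, and the log2 fold change was -0.33 ± 0.15 (SE, n = 4 each, edgeR adjusted p = 0.613).

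Evi2a, a membrane protein gene (chr11:79526560-79530609), and Trf, which encodes the iron carrier transferrin (chr9:103204001-103230444), pointed opposite ways. Evi2a had 14.4, 11.1, 13.0 and 15.5 CPM in heterozygous libraries, against 15.4, 18.8, 17.0 and 15.8 CPM in wild type libraries, a log2 fold change of -0.31 ± 0.12 (SE, n = 4 each, edgeR adjusted p = 0.470). Trf had 35.7, 27.9, 30.4 and 33.6 CPM in heterozygous libraries, against 21.8, 27.5, 27.6 and 29.9 CPM in wild type libraries, a log2 fold change of 0.26 ± 0.10 (SE, n = 4 each, edgeR adjusted p = 0.470). Both pairs of groups overlapped by a small margin. Both genes share exon bases with another annotated gene on the same strand, 19.2% of those of Evi2a with Evi2 and 63.5% of those of Trf with Gm20425, so the counting could have split or dropped their reads. The remaining mature genes ranged on the log2 scale from -0.39 for Aspa to 0.17 for Mal, neither of which was called under a setting that used all 8 libraries. Without one library Aspa lay between -0.63 and -0.15.

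The other mature members overlapped between the genotypes. Mag, a lectin on the membrane that faces the axon, had 150 to 204 CPM in heterozygous libraries, against 148 to 192 CPM in wild type libraries, and Tspan2, a tetraspanin of oligodendrocytes, had 142 to 188 CPM, against 143 to 170 CPM. Ermn, an actin-binding protein of late maturation, had 43.9 to 60.2 CPM in heterozygous libraries, against 42.3 to 55.3 CPM in wild type libraries. Their log2 fold changes were 0.08, 0.07 and 0.04, in this order. Qdpr, which recycles the cofactor tetrahydrobiopterin, had 92.8 to 115.5 CPM in heterozygous libraries, against 97.1 to 116.8 CPM in wild type libraries, and differed by -0.02. Plekhb1, a membrane protein with a pleckstrin-homology domain, had 164 to 197 CPM in heterozygous libraries, against 170 to 203 CPM in wild type libraries, and differed by -0.08. Ugt8a, which makes galactosylceramide, had 39.6 to 55.5 CPM in heterozygous libraries, against 47.9 to 63.2 CPM in wild type libraries, and differed by -0.18.

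**Figure D2:**
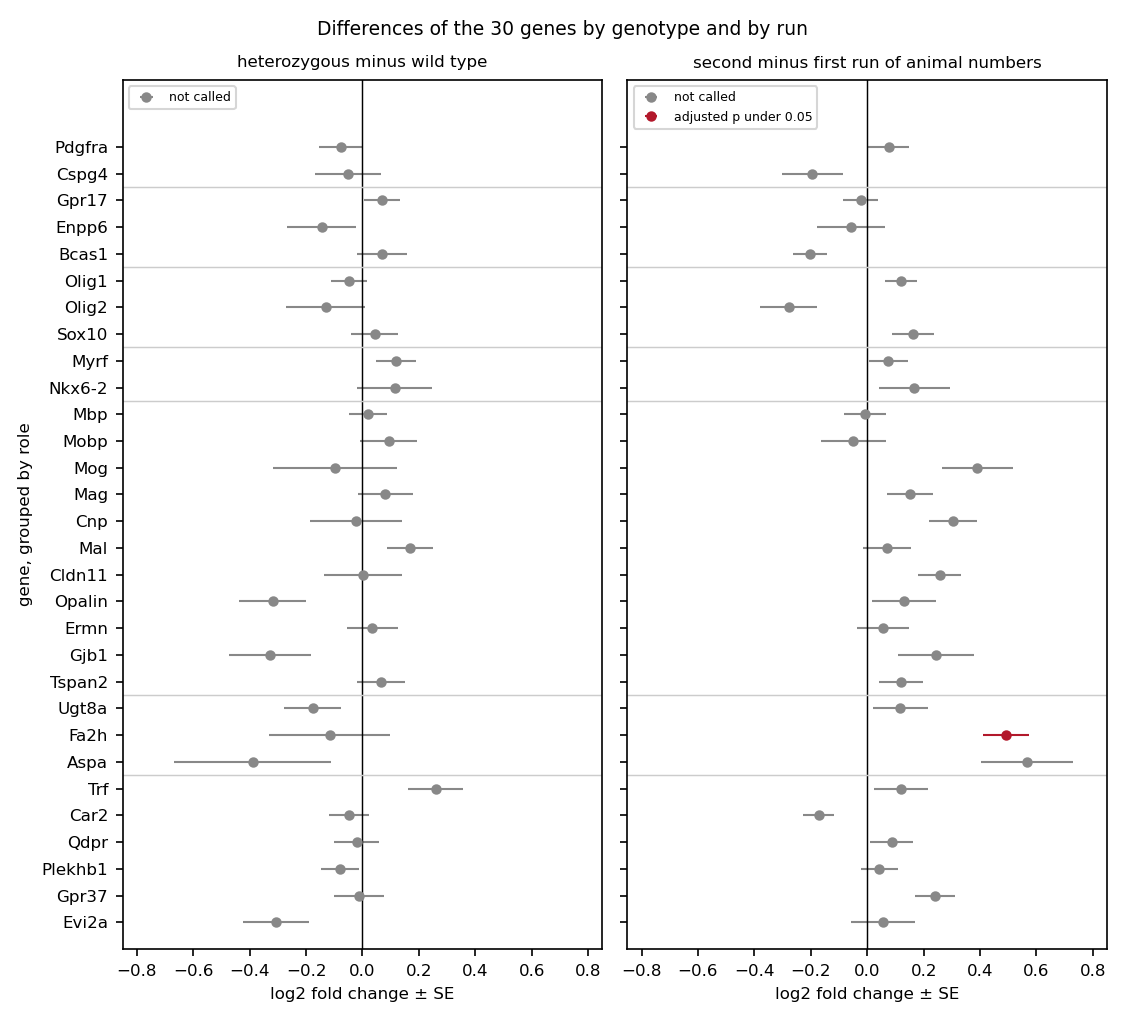
Log2 fold change with its standard error for the 30 genes, as heterozygous minus wild type on the left and second minus first run of animal numbers on the right, with called genes in red. No gene is called by genotype, with values between -0.39 and 0.26, and Fa2h at 0.49 is the called gene by run.

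The genotype difference was then read within each run of animal numbers, from 2 heterozygous and 2 wild type libraries at a time. Within the second run 70 of 13943 genes (0.502%) were called and 0 members were. Within the first run 164 of 13957 genes (1.18%) were called, and 3 members were. Mal was higher in heterozygous libraries of the first run (log2 fold change 0.34, edgeR adjusted p = 0.000164), as was Mobp (0.25, edgeR adjusted p = 0.00533), and Aspa was lower (-0.76, edgeR adjusted p = 0.0177). In the second run the same genes had -0.0008, -0.08 and -0.15. Each fit within a run left 1 residual degree of freedom per gene. With all 8 libraries these genes were not called (edgeR adjusted p = 0.736 for Mal, 0.965 for Mobp and 0.906 for Aspa).

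Mal, the lipid raft protein, had the smallest adjusted p of the 3. In the first run it was 405 and 353 CPM in heterozygous libraries, against 281 and 317 CPM in wild type libraries. In the second run it was 335 and 370 CPM in heterozygous libraries, against 388 and 319 CPM in wild type libraries. The genotypes were apart in the first run and overlapped in the second. The difference of the genotype effects, as second minus first run, was not called for any member, against 1 gene called of 13879 (0.00721%). At an unadjusted p under 0.05 there were 4 members, Gpr17, Bcas1, Olig1 and Mal, against 4.09% of all genes. For Mal it was -0.34, with an unadjusted p of 0.0080 and an edgeR adjusted p of 0.999.

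Sex gave no call in the lineage either. Between males and females 4 of 13879 genes (0.0288%) were called by edgeR and 0 members were. At an unadjusted p under 0.05 there was 1 member, Enpp6, against 2.92% of all genes. Enpp6 had 14.2, 13.1, 16.5 and 12.2 CPM in males, against 9.75, 11.03, 11.4 and 12.8 CPM in females. The lowest male library lay within the female range, and the log2 fold change of males minus females was 0.32 ± 0.12 (SE, n = 4 each, edgeR adjusted p = 1.00). The genotype effect differed between males and females for 0 genes at an adjusted p under 0.05 (0%), members included. At an unadjusted p under 0.05 it did for 366 genes (2.64%) and for 0 members.

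The comparison that did separate some of these genes was that of the runs of animal numbers. Fa2h was higher in the second run, and it was the 1 member called. Several further myelin genes lay higher and some other members lower without passing the test. Of 13879 genes 53 (0.382%) were called between the runs, 24 of them higher (0.173%) and 29 lower (0.209%), and 1 of the 30 members was. At an unadjusted p under 0.05 there were 11 members, against 10.2% of all genes tested. Of these, 8 were higher, against 5.11% of all genes, and 3 were lower, against 5.07%. By run 22 members were above 0 and 8 below on the log2 scale, where 50.9% of all genes were above 0, with a median of 0.10 beside 0.002 over all genes. The runs did not overlap for 3 members, Fa2h, Mog and Gpr37, against 5.46% of all genes tested. All 3 were higher in the second run, against 2.57% of all genes.

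Fa2h (chr8:111345135-111393824, ENSMUSG00000033579.16) makes the 2-hydroxy fatty acids of myelin galactolipids. In the second run it had 37.3 and 45.1 CPM in heterozygous libraries and 44.2 and 41.9 CPM in wild type libraries. In the first run it had 30.3 and 25.7 CPM in heterozygous libraries and 32.0 and 32.1 CPM in wild type libraries. Every second-run value was above every first-run value, in both genotypes. Fa2h averaged 42.11 ± 3.452 CPM in the second run and 30.03 ± 2.995 CPM in the first (SD, n = 4 each), a 1.41-fold difference (log2 fold change 0.49 ± 0.08, SE, edgeR adjusted p = 0.00422). Without heterozygous replicate 4 the log2 fold change was 0.40 and Fa2h was no longer called (edgeR adjusted p = 0.0919).

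The other enzymes of myelin lipid and metabolites pointed the same way. Aspa had 12.3, 12.8, 12.4 and 15.6 CPM in the second run, against 8.77, 5.05, 10.5 and 12.4 CPM in the first run. The runs touched at their edges, and the lowest library was heterozygous replicate 2. Its log2 fold change was 0.57 ± 0.16 (SE, n = 4 each, edgeR adjusted p = 0.180). Ugt8a had a log2 fold change of 0.12.

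Among the structural proteins of myelin, 9 of 11 had a log2 fold change above 0 by run and 3 had an unadjusted p under 0.05, beside 50.9% and 10.2% of all genes. Mog, an immunoglobulin-like protein of the outermost myelin surface, had 60.6, 67.1, 66.6 and 63.5 CPM in the second run, against 58.3, 34.8, 49.3 and 56.7 CPM in the first run. Second-run values were tight and all above the first run, in which heterozygous replicate 2 was far below the rest. Mog differed by a log2 fold change of 0.39 ± 0.13 (SE, n = 4 each, edgeR adjusted p = 0.325). Its promoter window, printed above, held none of the motifs searched.

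Cnp, a phosphodiesterase that keeps cytoplasm open within myelin, had 311, 332, 336 and 316 CPM in the second run, against 312, 213, 247 and 287 CPM in the first run. Only heterozygous replicate 1 of the first run reached the level of the second. Cnp, whose window holds a SOX core and a MYRF motif, differed by 0.30 ± 0.09 (SE, n = 4 each, edgeR adjusted p = 0.235) on the log2 scale, and Cldn11, the tight-junction gene, by 0.26 ± 0.08 (edgeR adjusted p = 0.227). Without heterozygous replicate 1 both were called, Cnp at 0.39 with an edgeR adjusted p of 0.0111 and Cldn11 at 0.34 with one of 0.0228. The 2 members with the highest level per kb had -0.01 for Mbp and -0.05 for Mobp.

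The other mature genes were mixed. Gpr37, an orphan receptor of maturing oligodendrocytes, had 48.0, 50.6, 51.7 and 49.9 CPM in the second run, against 44.3, 41.1, 38.2 and 46.1 CPM in the first run. The runs did not overlap, and the log2 fold change was 0.24 ± 0.07 (SE, n = 4 each, edgeR adjusted p = 0.157). Car2, the carbonic anhydrase of oligodendrocytes, went the other way, with 149, 159, 165 and 181 CPM in the second run, against 186, 189, 172 and 188 CPM in the first run. The runs overlapped by 1 library on each side, and the log2 fold change was -0.17 ± 0.06 (SE, n = 4 each, edgeR adjusted p = 0.219). Without wild type replicate 1 Car2 was called at -0.24, and without wild type replicate 3 Aspa was called at 0.77. Trf, Qdpr, Plekhb1 and Evi2a had log2 fold changes by run of 0.12, 0.09, 0.04 and 0.06 and were not called.

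**Figure D3:**
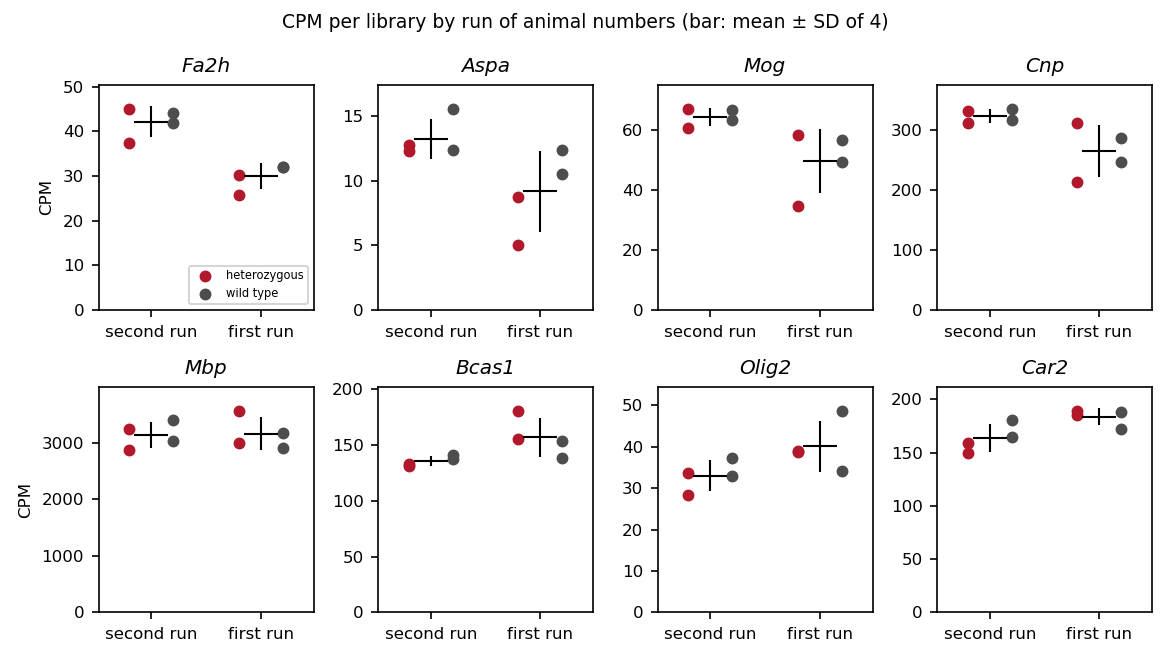
CPM of 8 genes per library by run of animal numbers, with heterozygous libraries in red, wild type in grey, and bars for the mean ± SD of 4 libraries. Fa2h averages 42.11 CPM in the second run and 30.03 CPM in the first, Mog is also separated, Mbp is level, and Bcas1, Olig2 and Car2 lie lower in the second run.

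The earlier stages were read by run beside the mature genes, with no test of the difference between stages. Of the 5 precursor and newly formed genes 1 (Pdgfra) had a log2 fold change above 0, with a median of -0.06, whereas 19 of the 22 mature genes were above 0, with a median of 0.12. Of the 5, Bcas1 had an unadjusted p under 0.05. Bcas1 had 132, 131, 138 and 141 CPM in the second run, against 180, 155, 138 and 153 CPM in the first run. The lowest first-run library was level with the second run. Bcas1 differed by -0.20 ± 0.06 (SE, n = 4 each, edgeR adjusted p = 0.173) on the log2 scale. An antisense gene shares 11.7% of the exon bases of Bcas1, and without a stated strand setting its reads cannot be told apart from those of Bcas1.

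Of the lineage factors, Olig2 was lower and Olig1 and Sox10 were slightly higher in the second run before adjustment. Olig2 had 33.6, 28.3, 37.4 and 32.9 CPM in the second run, against 38.8, 38.9, 48.6 and 34.0 CPM in the first run. The runs overlapped, and wild type replicate 1 was the highest library. Olig2 differed by -0.28 ± 0.10 (SE, n = 4 each, edgeR adjusted p = 0.310) on the log2 scale, beside 0.12 for Olig1 and 0.16 for Sox10. Without wild type replicate 2 Olig2 was called at -0.41, and without wild type replicate 4 Bcas1 was called at -0.27.

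**Figure D4:**
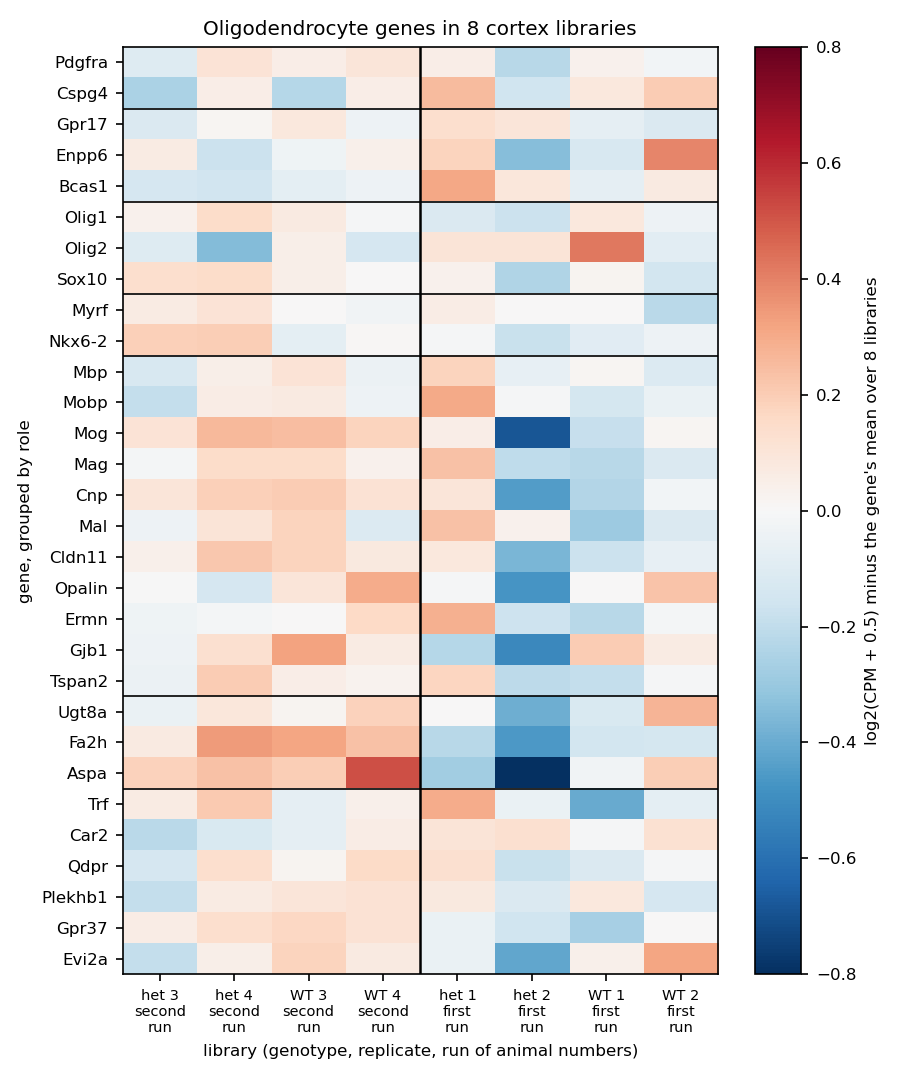
Each gene's log2 level in each library minus its mean over 8 libraries, with libraries of the second run left of the line and of the first run right of it, and colours that saturate at the ends of the scale. Heterozygous replicate 2 holds the lowest value for 16 of the 30 genes, among them Mog and Aspa in dark blue.

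A score for each stage was taken per library as the mean of log2 CPM over its genes after centring each gene. Over the 22 mature genes it was -0.02, 0.12, 0.11 and 0.10 in the second run, against 0.07, -0.27, -0.11 and 0.004 in the first run. Over the 5 precursor and newly formed genes it was -0.11, -0.03, -0.04 and 0.02 in the second run, against 0.19, -0.11, -0.03 and 0.11 in the first run. Both scores overlapped between the runs, and heterozygous replicate 2 was low in both. RNA integrity numbers ran from 8.6 to 9 over the libraries. The value was 8.6 in heterozygous replicate 2, with a mature score of -0.27, and in wild type replicate 3, with one of 0.11.

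The mature score minus the precursor score was 0.09, 0.15, 0.15 and 0.08 in the second run, against -0.12, -0.16, -0.08 and -0.10 in the first run. All 4 second-run libraries were above 0 and all 4 first-run libraries below it, in both genotypes. The means were 0.12 ± 0.04 in the second run and -0.12 ± 0.03 in the first (SD, n = 4 each), a difference of 0.23 on the log2 scale. Leaving out any library gave 0.22 to 0.25, and Pdgfra and Cspg4 alone in place of the 5 earlier genes gave 0.21. That pair pointed opposite ways by run, with log2 fold changes of 0.08 for Pdgfra and -0.19 for Cspg4. Cspg4 also marks pericytes, and the part of pericytes in this value was not tested. By genotype the mature score minus the precursor score averaged -0.01 ± 0.15 in heterozygous libraries and 0.01 ± 0.12 in wild type libraries (SD, n = 4 each). This is a description with no test, since the genes were chosen with earlier results of these data known.

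**Figure D5:**
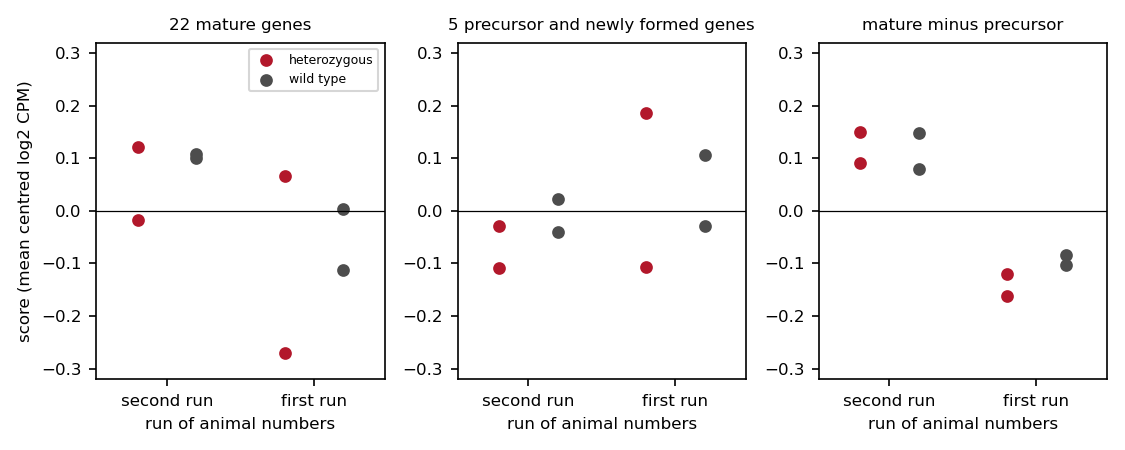
Score per library, in log2 units, for the 22 mature genes, the 5 precursor and newly formed genes and their difference, by run of animal numbers, with heterozygous libraries in red and wild type in grey. In the right panel the second run lies between 0.08 and 0.15 and the first between -0.16 and -0.08.

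Other genes of mature oligodendrocytes gave further calls by run. Of 39 listed, 38 were tested and 5 were called, all higher in the second run, against 0.173% of all genes, with 30 of 38 above 0 and a median of 0.18. The list was chosen with earlier results of these data known, so these counts are a description and no independent support. Efnb3, an ephrin ligand, had 85.7, 91.0, 72.8 and 73.4 CPM in the second run, against 55.9, 77.0, 56.2 and 49.5 CPM in the first run. One first-run library, heterozygous replicate 2, lay within the second-run range, and the log2 fold change was 0.45 ± 0.07 (SE, n = 4 each, edgeR adjusted p = 0.00152). Heterozygous replicate 2 held the lowest value for 12 of the 22 mature members, whereas for Efnb3 it was the highest first-run library. Prr18, a proline-rich protein of oligodendrocytes, averaged 52.4 ± 4.93 CPM in the second run and 36.9 ± 4.39 CPM in the first (SD, n = 4 each, edgeR adjusted p = 0.00893). Pllp, the myelin protein plasmolipin, averaged 49.7 ± 2.74 CPM in the second run and 38.2 ± 2.84 CPM in the first (SD, n = 4 each, edgeR adjusted p = 0.0124).

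Ppp1r14a, a regulator of myosin phosphatase, averaged 6.13 ± 0.97 CPM in the second run and 3.05 ± 0.87 CPM in the first (SD, n = 4 each, edgeR adjusted p = 0.0319). Gpr62, an orphan receptor named after its values were seen, averaged 11.6 ± 1.01 CPM in the second run and 7.21 ± 1.94 CPM in the first (SD, n = 4 each, edgeR adjusted p = 0.0344). Leaving out 1 library gave 1 to 4 calls in this list, with 1 call without heterozygous replicate 4 or without wild type replicate 2. By genotype 0 of the 38 were called, with a median of -0.05.

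Genes of the surrounding pathways, from lists chosen in the same way, gave no call in either comparison. Cholesterol synthesis, on which myelin growth depends, had 0 of 17 called by run and 5 higher at an unadjusted p under 0.05, with 16 of 17 above 0 and a median of 0.12, beside 5.11% of all genes higher at that p and 50.9% above 0. It had 0 called by genotype, with a median of -0.01. Further precursor genes (13 tested) and further newly formed genes (10 tested) had 0 calls by edgeR, with medians by run of 0.03 and -0.06. By run 1 of the further precursor genes and 0 of the further newly formed genes had an unadjusted p under 0.05. Signals and receptors that steer the lineage had 0 of 19 called by run and by genotype, with 2 and 1 at an unadjusted p under 0.05. These shares lie near those of all genes, 10.2% by run and 7.24% by genotype. Among these signals and receptors, Notch1, the receptor that holds precursors undifferentiated, averaged 28.0 CPM in heterozygous libraries and 23.1 CPM in wild type libraries (edgeR adjusted p = 0.284).

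Markers of other cells, from lists also chosen with earlier results of these data known, were read beside these results. Endothelial and pericyte markers had a log2 fold change by run below 0 for 10 of 10 genes. Of these, 3 were called lower in the second run (Abcb1a, Ly6c1 and Pecam1), against 0.209% of all genes, and a median of -0.42. Their summed level was 312 to 371 CPM in the second run, against 391 to 426 CPM in the first run. Leaving out 1 library gave 0 to 5 calls in this list, with 0 calls without heterozygous replicate 3 or without heterozygous replicate 4 and 5 without wild type replicate 3. Neuron markers had 0 of 10 called by run and summed to 10542 to 10954 CPM in the second run, against 10919 to 11285 CPM in the first run. By run 7 of 10 were below 0, and 4 had an unadjusted p under 0.05 (1 higher and 3 lower), against 10.2% of all genes. By genotype 10 of 10 neuron markers were above 0, against 49.5% of all genes, with a median of 0.05 and 0 called. Astrocyte markers had 0 of 10 called in either comparison, with medians of 0.04 by run and -0.03 by genotype. By genotype 8 of 10 were below 0, and 2 had an unadjusted p under 0.05, against 7.24% of all genes. These were Gfap at 0.36 and Aldoc at -0.11 on the log2 scale. The genotypes did not overlap for 1 of the 10, Gfap, against 4.55% of all genes. By run 6 of 10 astrocyte markers were above 0, and 2 were higher at an unadjusted p under 0.05, against 5.11% of all genes.

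Markers of regions that adjoin the cortex, from lists chosen in the same way, were read too. Striatum markers, 9 tested, were below 0 by run for 9 of 9, where 50.9% of all genes were above 0. Their median by run was -0.15, with 0 calls. At an unadjusted p under 0.05, 2 of them were lower in the second run, against 5.07% of all genes. Their score ran from -0.25 to 0.21 in the second run, against -0.40 to 0.52 in the first run. By genotype the same striatum markers were above 0 for 9 of 9, with a median of 0.22 and 0 calls. Hippocampus markers had 7 of 9 above 0, a median of 0.17 and 2 called (Wfs1 and Fibcd1, both higher in heterozygous libraries), against 0.267% of all genes. Npnt of that list, named after its values were seen, had a log2 fold change of -0.70, with lower values in all 4 heterozygous libraries than in any wild type one. Thalamus markers had 6 of 8 above 0, a median of 0.14 and 1 called (Ramp3, lower). Microglia markers had 7 of 9 above 0, a median of 0.17 and 2 called (C1qb and C1qc, higher). Microglia markers summed to 353 to 399 CPM in heterozygous libraries, against 318 to 345 CPM in wild type libraries. The median log2 fold change by run was -0.03 in the tenth of genes with the least GC and 0.04 in that with the most. The part of vessel markers, regional markers and GC content in the values by run and by genotype was not tested.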

How the data were processed

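Polyadenylated RNA from whole cortex of 8 mice was sequenced, after column extraction and with samples in random order, per the labels' protocols. The deposited table held unnormalized read counts by gene symbol. The submitters' processing notes name STAR 2.5.2b, HTSeq and build mm10. Annotation, strand setting and filters were not given in the sources used here, so reads of a gene and its antisense partner cannot be told apart. Of 22000 rows, 4602 held no read. Symbols of 19884 rows were matched to GENCODE release M21 (GRCm38), which gave coordinates, exon lengths and overlaps. In that annotation 12 of the 30 members share exon bases with another gene.

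Genes were kept with edgeR's filterByExpr (minimum count 10), which left 13879 genes and 99.95% of reads, and libraries were scaled by TMM. The main test was edgeR's robust quasi-likelihood test (edgeR 4.0.16, R 4.3.3) with sex and genotype as terms, and also run of animal numbers for the comparison of runs. Benjamini-Hochberg adjustment ran over all genes, and an adjusted p under 0.05 was called. Interactions and fits within a run, each with 1 residual degree of freedom per gene for the latter, used the same test. Scores used log2 CPM with a pseudocount of 0.5. Alternatives were DESeq2 1.42.0, limma-voom (limma 3.58.1), other scaling, filters and covariates, and leaving out each library. The genotype and run fits over all libraries were also run on simulated counts, with an outcome not reported here. The simulation did not cover fits within a run or without a library.

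The members and lists were chosen with earlier results of these data known. All 30 members are named. From other lists the rule names the called genes by smallest p, up to 4, or where none was called the 2 with the smallest p by genotype, and the text gives a part of these. Per the labels each library is 1 mouse. Libraries of the same genotype all differed by more than sampling noise (lowest chi-square per degree of freedom 4.14). Total counts limit precision most for the genes of a few CPM.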

Additional observations from a re-analysis of the deposited data

Results flagged for a closer look

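Of 66 groups of 4 libraries checked, the CPM of Plekhb1, a pleckstrin-homology domain protein of oligodendrocytes, had 1 wild type library far from the others. Wild type replicate 2 had 170 CPM, against 198 to 203 CPM in the other 3 wild type libraries. The gap was 0.862 of the group's range, past the 95% critical value for 4 samples. Chance alone passes that value in about 1 of 20 groups.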

How the results depend on the processing

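The count of members called by genotype was 0 under all 9 other settings of normalization, filter, test and covariates and without each library. The members called by run numbered 1 under all 8 such settings, always Fa2h, and 0 to 3 without one library. The count of all genes called by genotype was 82 with no filter, 80 with DESeq2's Wald test and 72 with run as a further term, and 19 to 80 without one library (80 without heterozygous replicate 1, 24 without heterozygous replicate 2, 23 without wild type replicate 1 and 19 without wild type replicate 2). By run it was 95 with no filter and 11 to 77 without one library, with 23, 27, 17 and 11 without heterozygous replicates 1 to 4 in turn. By sex it was 2 to 6 without one library, with 2 without wild type replicate 3. Other mature genes called by run numbered 1 to 4 without one library. Endothelial and pericyte markers called by run numbered 5 with DESeq2's Wald test and 0 to 5 without one library. Upper-quartile and DESeq2 scaling moved the median of all genes by at most 0.0025 on the log2 scale.

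Some small genotype differences changed sign, and the cause was not tested. Within the second run the log2 fold changes were -0.083 for Bcas1, -0.11 for Ermn, -0.072 for Gpr17, -0.027 for Mag, -0.00084 for Mal, -0.073 for Mbp, -0.081 for Mobp and 0.060 for Olig1. Within the first run they were 0.059 for Car2, -0.016 for Cldn11, 0.027 for Gpr37, -0.027 for Nkx6-2, 0.0083 for Plekhb1, 0.039 for Qdpr and -0.040 for Sox10. Cldn11 was also at -0.0074 with limma-voom, -0.063 with RNA integrity as a term and -1.1e-07 with run as a term, and Ermn at -0.0049 with RNA integrity as a term.

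Without one library, the log2 fold change by genotype lay at -0.18 to 0.033 for Cspg4, -0.034 to 0.15 for Bcas1, -0.12 to 0.011 for Olig1, -0.21 to 0.026 for Olig2, -0.020 to 0.13 for Sox10, -0.048 to 0.077 for Mbp, -0.0084 to 0.19 for Mobp, -0.30 to 0.070 for Mog, -0.16 to 0.098 for Cnp, -0.12 to 0.11 for Cldn11, -0.055 to 0.14 for Ermn, -0.025 to 0.14 for Tspan2, -0.31 to 0.018 for Fa2h, -0.11 to 0.019 for Car2, -0.084 to 0.042 for Qdpr and -0.097 to 0.054 for Gpr37. By run it lay at -0.092 to 0.044 for Gpr17, -0.13 to 0.063 for Enpp6, -0.068 to 0.072 for Mbp, -0.10 to 0.069 for Mobp, -0.015 to 0.18 for Mal, -0.047 to 0.18 for Ermn, -0.012 to 0.13 for Plekhb1 and -0.066 to 0.12 for Evi2a.

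The labels pair no animals, so mice were not fitted in pairs. Each run held 1 mouse of each sex and genotype, and the fit with run as a term beside sex gave the 72 calls above, all 37 calls of the fit without it among them, and 0 members. With 4 libraries a genotype, a missed call does not show that the genotypes were alike.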
